A study of Mus musculus with 10 samples.

Results

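The 5 genes described here are Ctsh, Morf4l1, Tbc1d2b, Rasgrf1 and Ireb2, mouse homologs of genes that lie near ADAMTS7 in the human coronary disease locus or next to Adamts7 in the mouse genome. They were picked by symbol, and all 5 were among the 36144 genes of the expression table. The study compared aortic smooth muscle cells with raised Adamts7, a secreted metalloprotease, against wild-type cells. The overexpression group held 3 RNA libraries, 1 mouse each, from mice that carried Myh11-Cre-ERT2 together with Adamts7 overexpression, labelled as specific to vascular smooth muscle. The wild-type group held 3 RNA libraries, also 1 mouse each, and its labels name no allele, so the comparison joins the Cre driver and the overexpression. Myh11 is a smooth muscle promoter, and this Cre becomes active with tamoxifen, but the labels do not say whether it was given. All mice were males aged 8 weeks, and their medial cells were grown in serum and used at passages 2 to 7, with the passage of each culture not given. For RNA, sample titles of the overexpression group open with the abbreviation of wild type although their genotype label names overexpression, and the level of Adamts7 itself went with the genotype label.

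The 5 genes do unrelated work. Ctsh encodes cathepsin H, a cysteine protease of the lysosome that trims proteins from their amino end. Morf4l1 encodes a chromodomain protein that binds methylated histone tails and belongs to histone acetyltransferase and deacetylase complexes. Tbc1d2b encodes a TBC-domain protein of the family that switches off Rab GTPases of endosomes. Rasgrf1 encodes an exchange factor that loads Ras with GTP, best known from neurons, and is imprinted in the mouse. Ireb2 encodes an iron regulatory protein that binds hairpins in messenger RNAs of ferritin and the transferrin receptor when iron is scarce, and is degraded through Fbxl5 when iron is ample. In human genetics variants across this region have been linked to coronary disease, and which of the genes carries the effect has been debated, with ADAMTS7 a leading candidate.

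Values are TPM, transcript abundance corrected for gene length and scaled to one total per library, so levels can be set side by side between genes. Each library sums to 1000000, which leaves its read number unknown. Overexpression replicate 3 stood between the genotypes, with a score of 0.67 on the first principal component (51.4% of the variance), where overexpression replicates 1 and 2 were at -18.6 and -39.4 and wild type lay between 16.8 and 20.3. Smooth muscle markers were abundant in both groups, with 10 genes summing to 4401 to 5638 TPM in overexpression and 3911 to 4000 TPM in wild-type cultures, and 6 of the 10 had an unadjusted p under 0.05 on the higher side. Markers of other cells were present as well. In wild type the endothelial sum was above that of smooth muscle in every library, and in overexpression it was below it. The 16 macrophage markers summed to 1133 to 3613 TPM in overexpression and 474 to 705 TPM in wild-type cultures, and all 16 had an unadjusted p under 0.05 on the higher side. The 12 endothelial markers summed to 2390 to 3940 TPM in overexpression and 4656 to 5168 TPM in wild-type cultures, and 9 had an unadjusted p under 0.05 on the lower side. No marker of either list was at 0 in all libraries. Of all tested genes, 10.6% had an unadjusted p under 0.05 on the higher side and 8.94% on the lower side. The 8 fibroblast markers summed to 72.4 to 105 TPM in overexpression and 79.5 to 96.4 TPM in wild-type cultures, and 1 had such a p on the higher and 1 on the lower side. Of these 8 Ly6a and Dcn were the most abundant, averaging 47.5 and 25.4 TPM over the 6 libraries, and 3 averaged under 1 TPM. In bulk RNA, fewer cells of a type cannot be told apart from less RNA per cell.

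The genes stood at very different levels, in the same order in every library. Ctsh had the highest listed values, with 433 to 517 TPM over the 6 libraries, followed by Morf4l1 with 269 to 316 TPM. The order of these 2 rests on how reads were split between Morf4l1 and its pseudogene copy Morf4l1-ps1. Summed, the copies averaged 543 TPM in overexpression and 545 TPM in wild-type cultures, above Ctsh at 466 and 481 TPM. Ireb2 was far lower, at 23.1 to 26.3 TPM, and Tbc1d2b lower again, at 12.5 to 15.2 TPM. Rasgrf1 was nearly silent, at 0.011 to 0.143 TPM. No 2 neighbours in this order overlapped in any library, and the ratio of means between them was 1.62 for Ctsh over Morf4l1, 11.8 for Morf4l1 over Ireb2, 1.80 for Ireb2 over Tbc1d2b and 174 for Tbc1d2b over Rasgrf1. Among all 36144 genes, ranked by mean level, Ctsh was of rank 302 in overexpression and 292 in wild-type cultures, and Morf4l1 of rank 490 in overexpression and 516 in wild-type cultures. Ireb2 was of rank 6043 in overexpression and 6016 in wild-type cultures, Tbc1d2b of rank 7923 in overexpression and 8339 in wild-type cultures, and Rasgrf1 of rank 18407 in overexpression and 17089 in wild-type cultures. Adamts7 had rank 2011 in overexpression and 9984 in wild-type cultures.

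**Figure D1:**
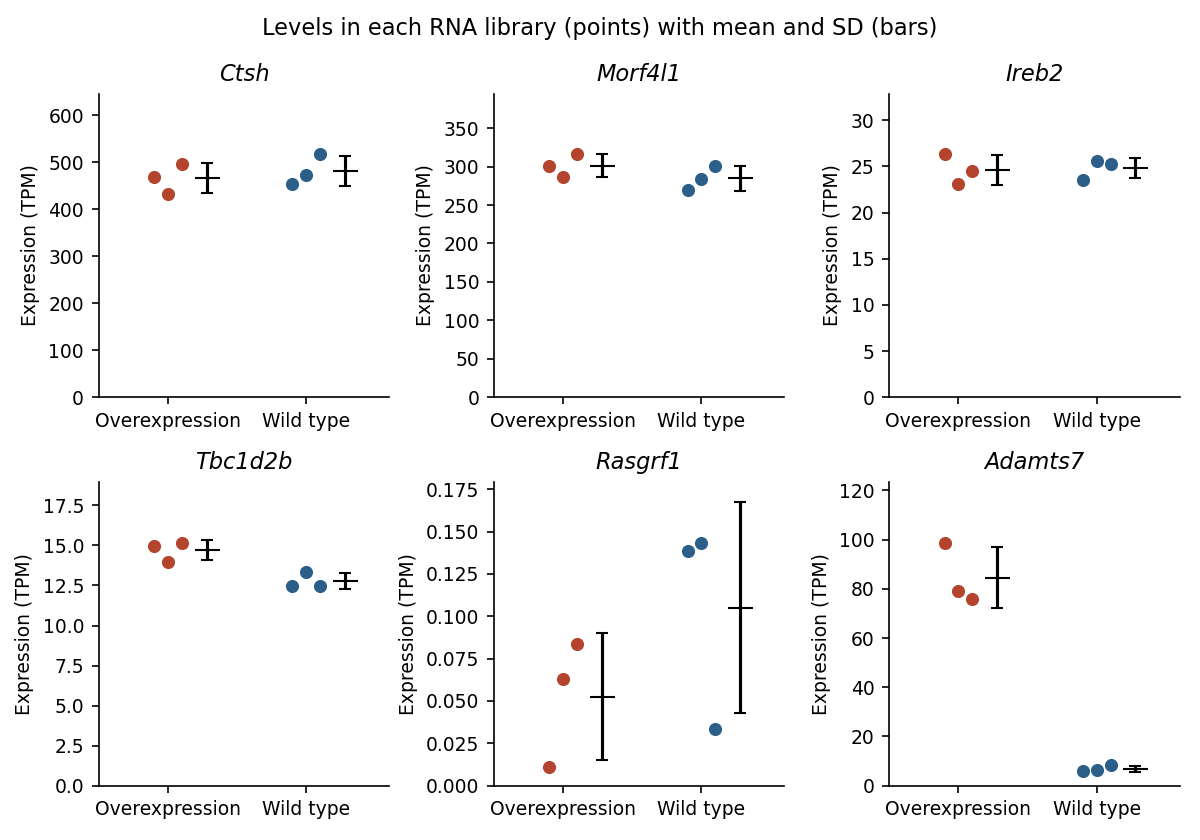
TPM of the 5 genes and of Adamts7 in each RNA library, with overexpression in red on the left and wild type in blue on the right. Bars give the mean and SD of 3 libraries, and each panel has its own linear axis from 0. The genotypes overlap for Ctsh, Morf4l1, Ireb2 and Rasgrf1, and stand apart for Tbc1d2b (14.0 to 15.2 against 12.5 to 13.3 TPM) and Adamts7 (75.8 to 98.7 against 6.08 to 8.20 TPM).

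On the mouse map (GRCm38.p6, the same assembly as mm10) 4 of the genes crowd around Adamts7, which spans chr9:90162904-90200102. Tbc1d2b (chr9:90202047-90270772) follows at a gap of 1945 bases, with its 3′ end facing Adamts7, since it is read from the minus strand. Before it come Morf4l1 (chr9:90091669-90114820) at a gap of 48.1 kb, Ctsh (chr9:90054267-90076095) at 86.8 kb and Rasgrf1 (chr9:89909508-90026979) at 136 kb. Ireb2 (chr9:54862658-54912534) is on the same chromosome but 35.3 Mb away, so in the mouse it is not a neighbour of Adamts7. Their identifiers in the table are ENSMUSG00000037410.13 for Tbc1d2b, ENSMUSG00000062270.14 for Morf4l1, ENSMUSG00000032359.14 for Ctsh, ENSMUSG00000032356.12 for Rasgrf1 and ENSMUSG00000032293.8 for Ireb2. The near-silent Rasgrf1 and the abundant Ctsh and Morf4l1 therefore share a stretch of the chromosome with Tbc1d2b.

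The start regions of 3 of these adjoining genes are shown because their RNA spans the range from abundant to almost none. Each sequence is the RefSeq promoter window of GRCm38.p6, from 250 bases before to 50 bases after the start, written along the strand of the gene, with CG pairs in capitals.
Morf4l1 promoter, chr9:90114771-90115070, minus strand: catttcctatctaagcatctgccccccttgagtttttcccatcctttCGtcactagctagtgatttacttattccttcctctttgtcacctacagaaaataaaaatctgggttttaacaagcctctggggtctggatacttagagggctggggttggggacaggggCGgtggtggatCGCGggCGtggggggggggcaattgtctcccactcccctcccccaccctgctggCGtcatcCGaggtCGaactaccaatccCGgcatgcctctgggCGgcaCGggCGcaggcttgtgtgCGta
Tbc1d2b promoter, chr9:90270720-90271019, minus strand: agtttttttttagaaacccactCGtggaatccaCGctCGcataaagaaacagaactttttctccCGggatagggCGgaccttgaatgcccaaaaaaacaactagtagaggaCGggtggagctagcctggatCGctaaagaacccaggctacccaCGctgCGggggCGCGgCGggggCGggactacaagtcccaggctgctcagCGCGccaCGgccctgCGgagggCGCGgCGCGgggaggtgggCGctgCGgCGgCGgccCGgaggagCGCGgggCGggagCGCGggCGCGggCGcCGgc
Rasgrf1 promoter, chr9:89909525-89909824, plus strand: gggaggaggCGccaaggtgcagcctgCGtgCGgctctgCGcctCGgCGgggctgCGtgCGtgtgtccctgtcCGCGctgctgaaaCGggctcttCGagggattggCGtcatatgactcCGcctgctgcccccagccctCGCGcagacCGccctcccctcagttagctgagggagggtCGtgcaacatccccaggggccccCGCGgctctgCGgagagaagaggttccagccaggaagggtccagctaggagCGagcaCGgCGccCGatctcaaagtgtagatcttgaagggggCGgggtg
The pair CG, which reads alike on both strands, occurs 13 times in the Morf4l1 window, 35 times in that of Tbc1d2b and 26 times in that of Rasgrf1, against a median of 7 over 32851 windows of the same length. The share of windows with at least as many was 37.9%, 6.95% and 16.9% for these genes, and 14.2% for Ireb2, whose window holds 28. The near-silent Rasgrf1 thus has a CG-rich window like the expressed Tbc1d2b and Ireb2, while the most abundant gene of the 3 shown, Morf4l1, has the fewest CG pairs. The windows of Rasgrf1 and Ireb2 lie wholly inside the gene spans given above, so their starts are not the outermost ends of these genes. Those of Morf4l1 and Tbc1d2b extend beyond the gene spans. Ctsh has no entry in the promoter table.

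The comparison of the genotypes asked whether RNA of these genes differed where Adamts7 was overexpressed. Adamts7 itself was at 98.7, 79.1 and 75.8 TPM in overexpression and at 6.08, 6.18 and 8.20 TPM in wild-type cultures, far apart. It averaged 84.5 ± 12.4 TPM in overexpression and 6.82 ± 1.20 TPM in wild-type cultures (SD, n = 3 each), and limma gave a log2 fold change of 3.45 (adjusted p = 0.000357). Of the 5 genes, 4 had a mean of at least 1 TPM and were tested, and none passed an adjusted p of 0.05 in limma, a threshold that 2 of 13131 tested genes passed, or 0.0152%, Adamts7 and Gm36961, the second named after its values were seen. None of the 4 had an unadjusted p under 0.05 either, which 10.6% of tested genes had on the higher side and 8.94% on the lower side. The libraries of the genotypes did not overlap for 1 of the 4, Tbc1d2b, which was higher in overexpression, as were 14.3% of tested genes, whereas 12.9% were lower without overlap. With 4 genes, 1 such gene is no result about the set. Fold changes here are on the log2(TPM + 1) scale, and the 95% confidence intervals of the 4 genes all lay between -0.23 and 0.38. Their within-genotype SD on this scale was 0.056 to 0.098, below the median of 0.13 over all tested genes. Exact permutation tests (two-sided) gave p = 0.1 for Tbc1d2b, 0.3 for Morf4l1 and Rasgrf1, 0.6 for Ctsh and 0.9 for Ireb2, and with 3 libraries a group they cannot go under 0.1.

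**Figure D2:**
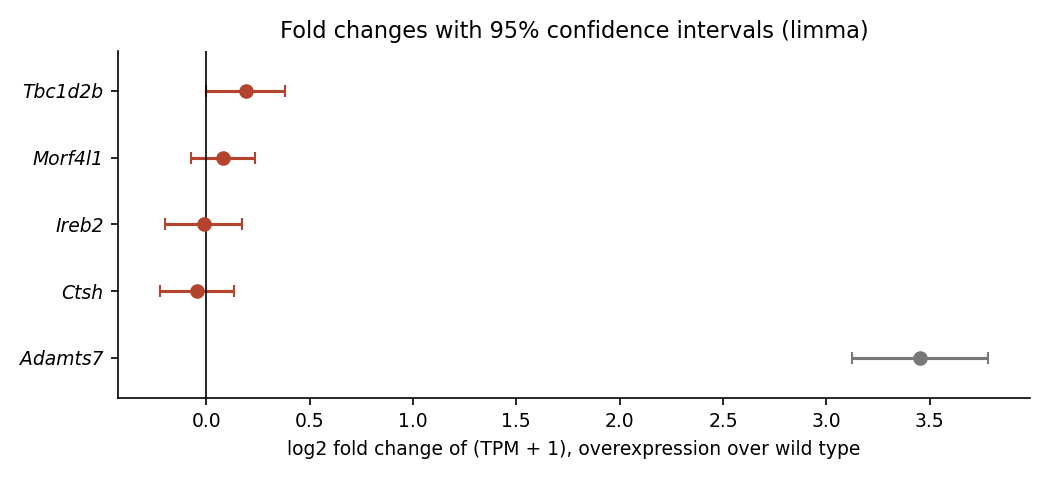
Log2 fold change of (TPM + 1), overexpression over wild type, with the 95% confidence interval of limma, for the 4 tested genes in red and Adamts7 in grey. The intervals of the 4 genes lie between -0.23 and 0.38, and that of Adamts7 between 3.12 and 3.78.

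Tbc1d2b, the direct neighbour of Adamts7, had the largest difference of the 4. It stood at 15.0, 14.0 and 15.2 TPM in overexpression replicates 1, 2 and 3, and at 12.5, 13.3 and 12.5 TPM in wild-type replicates 1, 2 and 3. Every overexpression library lay above every wild-type library, by a narrow margin. Its log2 fold change of 0.19 (SE 0.082) corresponds to a fold of 1.14 with a 95% interval of 0.999 to 1.30. Limma gave an unadjusted p of 0.0513 and an adjusted p of 0.257, over alternatives ranging from 0.0469 to 0.488. It passed under a single alternative, array quality weights, under which 20.8% of all tested genes passed. Of all tested genes, 35.0% had a larger difference in either direction.

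The Rab genes around Tbc1d2b showed no common direction. Of 13 endosomal Rab genes, regulators and effectors, none passed in limma. An unadjusted p under 0.05 was seen for 2 higher and 1 lower gene, against 10.6% and 8.94% of all tested genes. The median log2 fold change of the list was 0.015, against -0.0090 over all tested genes. Tbc1d2, the paralog of Tbc1d2b and known from human cells as a GTPase-activating protein for Rab7, was at 12.7, 10.6 and 15.1 TPM in overexpression and at 15.6, 15.8 and 16.7 TPM in wild-type cultures. Its log2 fold change was -0.31 (adjusted p = 0.234), opposite in sign to that of Tbc1d2b. Rab22a, an early endosome GTPase, averaged 41.8 ± 5.35 TPM in overexpression and 41.1 ± 2.75 TPM in wild-type cultures (SD, n = 3 each). Rab7b was at 13.3, 13.6 and 4.48 TPM in overexpression and 2.53, 4.11 and 3.84 TPM in wild-type cultures, with a log2 fold change of 1.24 (adjusted p = 0.161). It was highest in the same 2 libraries that had the highest macrophage sums, 3613 and 2933 TPM, and the part of those cells in this value was not tested. Rab31 averaged 36.2 TPM in overexpression and 30.3 TPM in wild-type cultures, with a log2 fold change of 0.24 (adjusted p = 0.214). The most abundant of the list, Rab7 and Rab5c, averaged 444 and 166 TPM in overexpression against 482 and 169 TPM in wild-type cultures.

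Morf4l1 was at 301, 287 and 316 TPM in overexpression and at 269, 284 and 301 TPM in wild-type cultures. The 2 ranges overlapped, with means of 301 ± 14.6 TPM in overexpression and 285 ± 15.9 TPM in wild-type cultures (SD, n = 3 each). The log2 fold change was 0.081 with a 95% interval of -0.075 to 0.24 (limma adjusted p = 0.537), so a fold above 1.18 lay outside the interval. The value carries an uncertainty of its own, because the table also lists Morf4l1-ps1, a pseudogene copy on chromosome 16. Kallisto gave this copy 242 ± 15.2 TPM in overexpression and 260 ± 7.79 TPM in wild-type cultures. Whether it is transcribed cannot be read from these values. Reads that fit both copies are split by estimate, and Morf4l1 took 52.5% to 57.8% of their sum in overexpression and 51.7% to 53.0% in wild-type libraries. The 2 copies leaned opposite ways, the pseudogene with a log2 fold change of -0.11 (adjusted p = 0.395). Their sum, an alternative chosen after seeing the data, was 543 ± 5.94 TPM in overexpression and 545 ± 23.6 TPM in wild-type cultures, with a log2 fold change of -0.0049 and a 95% interval of -0.14 to 0.13 (limma adjusted p = 0.970).

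Partners of Morf4l1 in histone acetyltransferase and Sin3 deacetylase complexes were all expressed, at shares of lower values near those of all tested genes. All 26 genes of the list were tested and none passed in limma. An unadjusted p under 0.05 was seen for 0 on the higher side and 3 on the lower side, where all tested genes had 10.6% and 8.94%. The genotypes did not overlap for 4, all lower, against 12.9% of all tested genes. The list median was -0.034, against -0.0090 over all tested genes. Phf12, a subunit of the Sin3 complex that also holds Morf4l1, was at 30.8, 29.8 and 30.1 TPM in overexpression and at 36.8, 35.9 and 36.2 TPM in wild-type cultures. Its libraries were tightly grouped and fully apart, with a log2 fold change of -0.26 and a 95% interval of -0.40 to -0.11 (adjusted p = 0.131). Meaf6, of acetyltransferase complexes, had -0.20 (adjusted p = 0.218), Sin3a, the scaffold of the deacetylase complex, -0.22 (adjusted p = 0.256) and the deacetylase Hdac1 -0.13 (adjusted p = 0.295). The paralog Morf4l2 was more abundant than Morf4l1 itself, at 688 ± 48.9 TPM in overexpression and 662 ± 20.0 TPM in wild-type cultures, and Mrgbp, which binds Morf4l1 directly, was at 20.6 ± 1.85 TPM in overexpression and 20.3 ± 0.94 TPM in wild-type cultures (SD, n = 3 each).

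No difference in Ctsh was detectable at the spread of these libraries. It was at 468, 433 and 497 TPM in overexpression and at 453, 473 and 517 TPM in wild-type cultures, with ranges that largely coincided. The means were 466 ± 31.9 TPM in overexpression and 481 ± 32.5 TPM in wild-type cultures (SD, n = 3 each). Its log2 fold change of -0.046 (SE 0.077) had a 95% interval of -0.23 to 0.13 (limma adjusted p = 0.777), which leaves out folds above 1.10 and below 0.855. Its sign turned, at 0.0050 and 0.0067, without overexpression replicate 2 or wild-type replicate 3.

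Several other cysteine cathepsins had larger fold changes than Ctsh, although none passed in limma. Of 9 listed genes 8 were tested, and the list median was 0.26. An unadjusted p under 0.05 was seen for 4 on the higher side and 0 on the lower side. The shares over all tested genes were 10.6% and 8.94%. Ctss, cathepsin S of antigen-presenting cells, was at 283, 185 and 80.4 TPM in overexpression and at 34.5, 47.1 and 43.6 TPM in wild-type cultures. Its log2 fold change was 1.94 with a 95% interval of 0.99 to 2.89 (adjusted p = 0.131). Ctsc, cathepsin C, which activates serine proteases of leukocytes, was at 55.1, 50.5 and 29.7 TPM in overexpression and at 15.3, 22.4 and 22.2 TPM in wild-type cultures (log2 fold change 1.11, adjusted p = 0.131). Ctsb, a broad lysosomal protease gene, averaged 624 TPM in overexpression and 458 TPM in wild-type cultures (0.44, adjusted p = 0.168). Ctsk, the collagen-degrading cathepsin K of osteoclasts, averaged 6.77 TPM in overexpression and 3.30 TPM in wild-type cultures, with overlapping libraries (0.75, adjusted p = 0.248). Ctsl, the most abundant cathepsin of the list, was at 745 ± 42.3 TPM in overexpression and 766 ± 30.1 TPM in wild-type cultures (SD, n = 3 each), with a log2 fold change of -0.040 near that of Ctsh.

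Among the overexpression libraries Ctss, Ctsc, Ctsb and Ctsl stood in the order of the macrophage sums. Ctsh, Ctsk and all other tested cathepsins of the list stood in other orders. The 16 macrophage markers, each taken as log2(TPM + 1) less its average in wild type, had medians of 2.16, 1.99 and 0.64 in overexpression replicates 1, 2 and 3. All 16 markers were higher without overlap, against 14.3% of all tested genes. Ctss was highest in replicate 1 and lowest in replicate 3 of the overexpression libraries, whereas Ctsh was highest in replicate 3. The endothelial markers had a median log2 fold change of -0.49 in the same comparison, with 8 of 12 lower without overlap, against 12.9% of all tested genes. The part of these cells in any of the cathepsin values was not tested. The inhibitors Cst3 and Cstb were at 627 and 220 TPM in overexpression and at 618 and 207 TPM in wild-type cultures, and 0 of 3 inhibitors had an unadjusted p under 0.05.

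**Figure D3:**
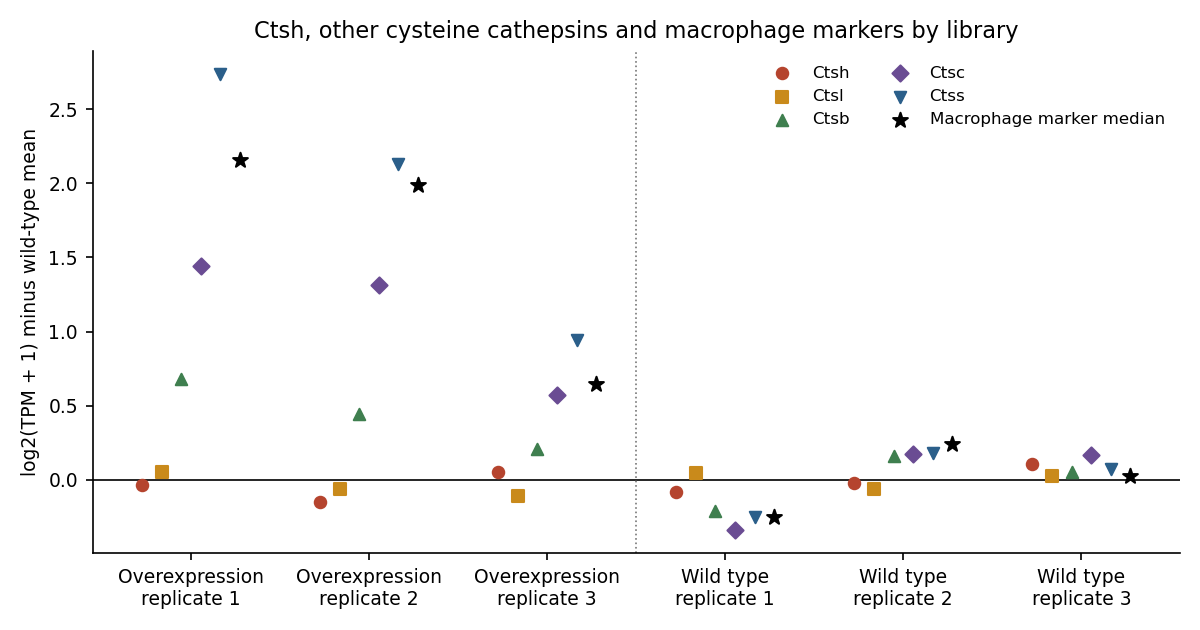
Log2(TPM + 1) minus the wild-type mean in each of the 6 RNA libraries for Ctsh and 4 other cysteine cathepsins, and the median of 16 macrophage markers as stars. Ctsh and Ctsl stay near 0 in every library, while Ctss and Ctsc are high where the macrophage median is 2.16 and 1.99 and lower in overexpression replicate 3, where it is 0.64.

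Ireb2 had the smallest difference of the 4 tested members. It was at 26.3, 23.1 and 24.5 TPM in overexpression and at 23.6, 25.6 and 25.3 TPM in wild-type cultures, and the ranges coincided. The means were 24.6 ± 1.61 and 24.8 ± 1.10 TPM (SD, n = 3 each), with a log2 fold change of -0.012 and a 95% interval of -0.20 to 0.17 (limma adjusted p = 0.951). The interval leaves out folds above 1.13 and below 0.871. Its sign turned under 4 of 16 alternatives.

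Among iron genes, the iron-sensing partners of Ireb2 had overlapping libraries, while an exporter and both ferritin chains had higher means in overexpression without passing. Fbxl5, the ubiquitin ligase subunit that removes Ireb2 when iron is ample, was at 36.1 ± 0.63 TPM in overexpression and 36.0 ± 2.61 TPM in wild-type cultures (SD, n = 3 each). Aco1, which encodes the other iron regulatory protein, averaged 31.8 TPM in overexpression and 28.1 TPM in wild-type cultures, with overexpression replicate 3 highest at 37.2 TPM (log2 fold change 0.17, adjusted p = 0.427). Of 14 listed iron genes 12 were tested, none passed in limma, and the median was 0.083. An unadjusted p under 0.05 was seen for 3 higher and 1 lower gene, against 10.6% and 8.94% of all tested genes. Tfrc, the transferrin receptor whose messenger RNA Ireb2 stabilises, was at 18.8, 17.9 and 19.5 TPM in overexpression and at 20.2, 18.2 and 18.3 TPM in wild-type cultures, and was named after its values were seen.

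Slc40a1, the iron exporter ferroportin, was at 62.0, 36.1 and 24.2 TPM in overexpression and at 13.2, 18.9 and 14.5 TPM in wild-type cultures (log2 fold change 1.25, adjusted p = 0.131). The ferritin chains Fth1 and Ftl1, which Ireb2 controls in translation rather than in RNA level, averaged 5330 and 4523 TPM in overexpression against 4073 and 3329 TPM in wild-type cultures (0.37 and 0.44, adjusted p = 0.203 and 0.199). Epas1, a hypoxia factor with an iron-responsive element that is abundant in endothelium, averaged 199 TPM in overexpression and 289 TPM in wild-type cultures (-0.59, adjusted p = 0.197). The 3 genes higher at an unadjusted p under 0.05, Slc40a1, Fth1 and Ftl1, were highest in overexpression replicate 1 and lowest of the overexpression libraries in replicate 3, in the order of the macrophage sums of 3613, 2933 and 1133 TPM, and Epas1 had its lowest value where the endothelial sum was lowest, in replicate 2. The part of those cells in these values was not tested.

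Rasgrf1 was too low for the test, with a mean of 0.079 TPM. It was listed at 0.011, 0.063 and 0.084 TPM in overexpression and at 0.139, 0.143 and 0.033 TPM in wild-type cultures. The groups overlapped, and since the number of reads behind values this small is unknown, no fold is read from them. Its paralog Rasgrf2 was measurable, at 6.36, 4.95 and 8.12 TPM in overexpression and at 6.89, 7.95 and 9.20 TPM in wild-type cultures (log2 fold change -0.28, adjusted p = 0.422). Of 16 listed genes that turn Ras on or off, or encode Ras itself, 13 were tested and none passed in limma. The median was -0.010. Of all tested genes, 10.6% had an unadjusted p under 0.05 on the higher side and 8.94% on the lower side. Among these 13 it was seen for 0 on the higher side and 2 on the lower side. One of those on the lower side was Rasgrp3, an exchange factor of endothelium and lymphocytes. Rasgrp3 was at 118 ± 27.9 TPM in overexpression and 156 ± 17.5 TPM in wild-type cultures (SD, n = 3 each; log2 fold change -0.43, adjusted p = 0.251). Hras averaged 106 TPM in overexpression and 104 TPM in wild-type cultures. Rasgrp3 had its lowest value, 85.5 TPM, in overexpression replicate 2, where the endothelial sum was also lowest. Rasgrf2, Ctsh and Ireb2 were lowest in that library too, whereas Hras, Morf4l1 and Tbc1d2b were not. The part of endothelial cells in the value of Rasgrp3 was not tested.

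Seen along the chromosome, the genes nearest to Adamts7 had small fold changes. The genomic site of the overexpression allele is not stated here, so distance to Adamts7 need not be distance to that allele. Within 1 Mb on either side the reference lists 31 other genes, of which 15 have a row in the table and 7 were tested. None of the 7 passed in limma, and the median log2 fold change was 0.081. An unadjusted p under 0.05 was seen for 2, both on the higher side, against 10.6% of all tested genes. The 3 tested genes within 100 kb were Tbc1d2b, Morf4l1 and Ctsh, with 0.19, 0.081 and -0.046. Tmed3, a cargo receptor of the secretory pathway at a gap of 458 kb, was at 97.7 ± 1.20 TPM in overexpression and 93.1 ± 6.30 TPM in wild-type cultures (SD, n = 3 each). Mthfs, a folate enzyme gene at 923 kb, averaged 8.74 TPM in overexpression and 6.30 TPM in wild-type cultures with overlapping libraries (log2 fold change 0.44, adjusted p = 0.252).

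The largest difference in the window belonged to Bcl2a1b, an anti-apoptotic gene of blood cells at a gap of 955 kb. It was at 17.9, 16.9 and 5.53 TPM in overexpression and at 1.97, 3.84 and 5.04 TPM in wild-type cultures, with a log2 fold change of 1.56 and a 95% interval of 0.52 to 2.59 (adjusted p = 0.151). Bcl2a1b has close copies in Bcl2a1a and Bcl2a1d, so its share of their reads is uncertain. Its highest libraries were those with the highest macrophage sums. After Adamts7 the window held 1 tested gene other than Tbc1d2b, the pseudogene Gm5620, named after its values were seen, at 7.28 ± 1.73 TPM in overexpression and 9.97 ± 1.72 TPM in wild-type cultures (SD, n = 3 each; -0.42, adjusted p = 0.268).

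**Figure D4:**
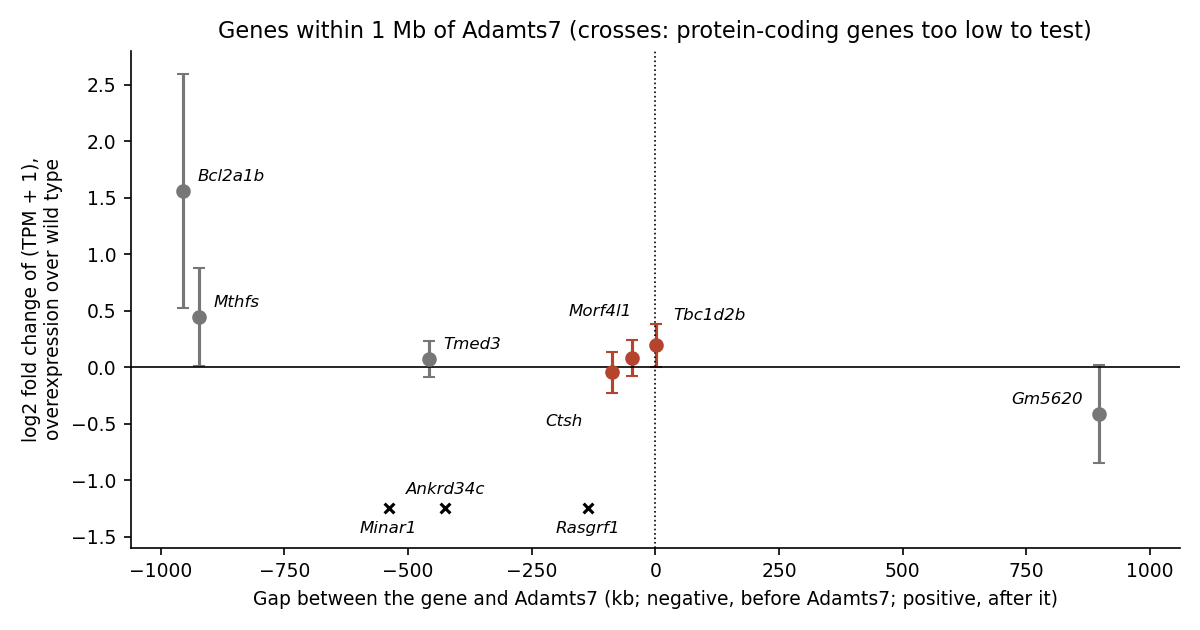
Log2 fold change of (TPM + 1) with 95% confidence interval for the 7 tested genes within 1 Mb of Adamts7, against the gap to Adamts7 in kb. Members of the set are red, other genes grey, and crosses at the foot mark protein-coding genes below 1 TPM. Tbc1d2b, Morf4l1 and Ctsh lie at 0.19, 0.081 and -0.046, and Bcl2a1b, at 955 kb, has 1.56 with a wide interval.

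Most other tested genes of the human locus had positive fold changes that did not pass. Of 19 listed homologs, all on chromosome 9, 12 lie within 1 Mb of Ireb2 and 7 within 2 Mb of Adamts7. Of the 10 that were tested 9 had a positive fold change, as had 48.3% of all tested genes, and none passed in limma. An unadjusted p under 0.05 was seen for 4, all on the higher side, against 10.6% of all tested genes, and the median was 0.13. Tmed3, Mthfs and Bcl2a1b belong both to this list and to the window around Adamts7. Of these 4, Bcl2a1b and Mthfs are the 2 already counted there, so the counts are not separate. Neighbouring genes of 1 stretch are not independent, and with 10 genes nothing particular to the locus is read from these counts. Around Ireb2, Cib2, a calcium-binding protein gene, was at 6.97, 8.29 and 7.95 TPM in overexpression and at 6.35, 4.65 and 4.83 TPM in wild-type cultures (log2 fold change 0.48, adjusted p = 0.151). Idh3a, a subunit of a tricarboxylic acid cycle enzyme, was at 78.2 ± 0.40 TPM in overexpression and 70.1 ± 2.56 TPM in wild-type cultures (SD, n = 3 each; 0.16, adjusted p = 0.211). Psma4, a proteasome subunit gene that sits 38.2 kb from Ireb2, averaged 235 TPM in overexpression and 218 TPM in wild-type cultures (0.11, adjusted p = 0.474). The nicotinic receptor genes Chrna5, Chrna3 and Chrnb4, which share this stretch and were named after their values were seen, averaged 0.094, 0.016 and 0.32 TPM over the 6 libraries and were not tested.

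Of the overexpression libraries, replicate 3 had the first-component score closest to wild type, at 0.67. Replicates 1 and 2, at -18.6 and -39.4, were also far from each other, so these scores do not single out replicate 3. The 4 genes were also compared without overexpression replicate 3, when 6.3% of 13141 tested genes passed. Their log2 fold changes were then 0.17 for Tbc1d2b, 0.046 for Morf4l1, -0.094 for Ctsh and -0.0089 for Ireb2, and none passed in limma (adjusted p = 0.321, 0.747, 0.520 and 0.967). For the lists this comparison was chosen after seeing the data. In it 2 of 8 cathepsins passed, Ctss with 2.44 (adjusted p = 0.00205) and Ctsc with 1.38 (adjusted p = 0.00773). Rab7b passed with 1.70 (adjusted p = 0.0051), and the iron genes Slc40a1 with 1.56, Fth1 with 0.52 and Epas1 with -0.81 (adjusted p = 0.0163, 0.0268 and 0.0230). All 16 macrophage markers were then higher and 6 of 12 endothelial markers lower past the threshold. Of all tested genes, 3.99% were then called higher and 2.31% lower. Bcl2a1b passed as the only tested gene of the window around Adamts7, with 2.05 (adjusted p = 0.0115). The complex partners of Morf4l1 and the Ras cycle genes gave 0 calls. Of each, 4 had an unadjusted p under 0.05 on the lower side, and 0 and 1 on the higher side. The share of all tested genes at such a p was not computed for this comparison, so nothing is read from these counts.

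**Figure D5:**
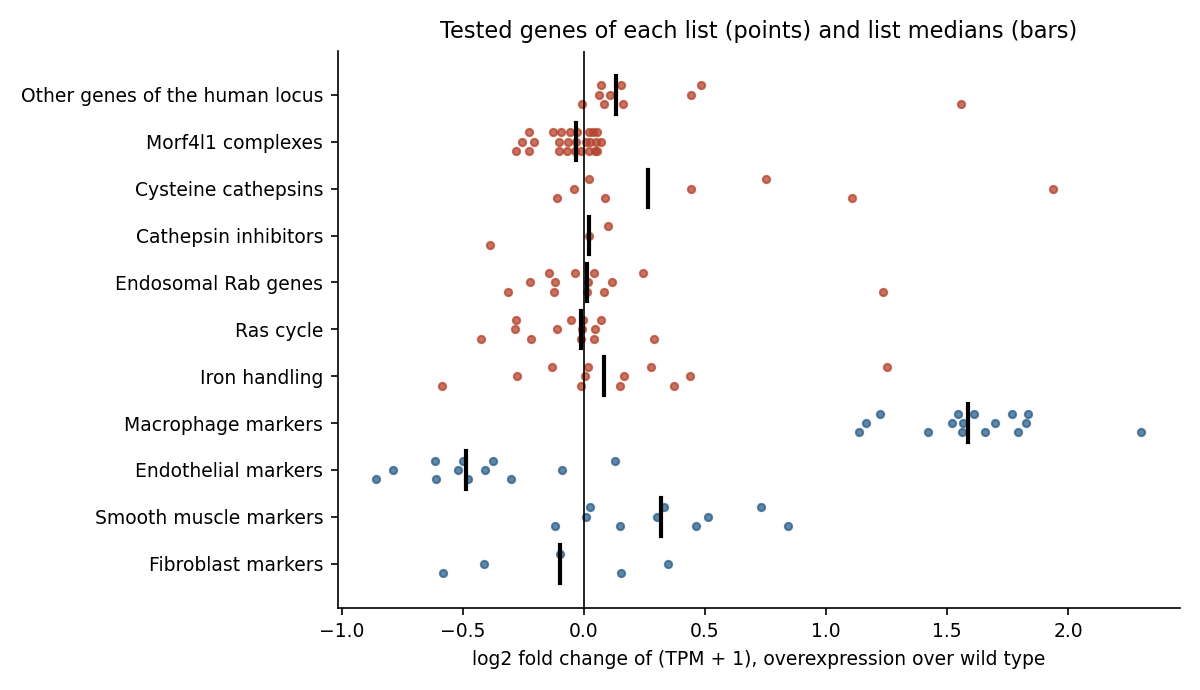
Log2 fold change of (TPM + 1), overexpression over wild type, for the tested genes of each list, with list medians as black bars. Lists tied to the 5 genes are red and cell type markers blue. Medians of the red lists lie between -0.034 and 0.26, against 1.59 for the macrophage and -0.49 for the endothelial markers.

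The genes of most similar pattern were found by the root-mean-square difference between deviations from the gene mean over the 6 libraries, on the log2(TPM + 1) scale, among 12191 tested genes with a named symbol. Closest to Morf4l1 were Cep170 and Rnf103, at 0.013 and 0.016. Closest to Ctsh were Gnl1, Ppm1g and Dcaf7, at 0.019, 0.019 and 0.021. Closest to Tbc1d2b were Slc25a36, Fam129a and Atxn3, at 0.014, 0.022 and 0.026. For Ireb2 they were Prdm10, Rnf215 and Plekhm1, at 0.014, 0.017 and 0.018, and for Rasgrf1 Hivep2, Smim14 and Gatad2b, at 0.011, 0.024 and 0.024. Such flat profiles have many near matches. Within a difference of 0.1 lay 3110 genes for Morf4l1, 3217 for Ctsh, 3231 for Ireb2, 2269 for Rasgrf1 and 1623 for Tbc1d2b. With a mean of 0.079 TPM, the profile of Rasgrf1 rests on the pseudocount. No shared pattern is read from its matches.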

How the data were processed

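Gene expression in 3 overexpression and 3 wild-type cultures was analysed from 1 table that the authors deposited as TPM per gene, named as kallisto output per the labels. Per the submitters' processing notes, mm10 was used. Kallisto version, annotation, strand setting and read number are missing from the labels. The ATAC-seq footprint table has no value per gene and was not used. All libraries carry the same batch label.

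The test was that of limma (version 3.58.1, R 4.3.3), two-sided, with a mean-variance trend, on log2(TPM + 1) of the 13131 genes whose mean reached 1 TPM, with Benjamini-Hochberg adjustment over them and a threshold of 0.05. P-values measure the spread between cultures of 1 mouse each, and intervals are unadjusted. Single genes also had an exact permutation test (Python 3.11.15, scipy 1.17.1). The fit was also run on simulated data in which genes were drawn independently, so that run does not give its error rates here. Neighbours came from a RefSeq table of GRCm38.p6, and promoter windows from RefSeq, with 4 of the 5 genes matched.

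Members, lists, tests and alternatives were chosen with earlier results of these data known, so the lists, among them the macrophage, endothelial, smooth muscle and fibroblast markers, lend no independent support. Named genes are the members and Adamts7. From each pathway list and the window they are the up to 4 genes with the smallest unadjusted p under 0.05, the 2 most abundant and direct partners of the members, and for each member the 3 genes of most similar pattern. Exceptions are stated, and 2 genes that the rule names are not reported here. Same-numbered mice did not deviate together, so the fit has no replicate block.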

Additional observations from a re-analysis of the deposited data

How the results depend on the processing

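Depth is unknown, so what the TPM could detect rests on the spread between 3 cultures per genotype. Morf4l1, Ctsh and Ireb2 missed the threshold under every alternative run, with adjusted p of 0.298 to 0.970, 0.510 to 0.981 and 0.550 to 0.995. Signs turned where values were near 0. Morf4l1 gave -0.0049 when summed with Morf4l1-ps1. Leaving out 1 library gave Ctsh -0.094 to 0.0067 and Ireb2 -0.059 to 0.032, and array quality weights gave Ireb2 0.050. Tbc1d2b kept its sign under all 16 alternatives (0.17 to 0.23) and passed under array quality weights alone, with 0.21. Rasgrf1, below the level tested, had an overexpression minus wild type difference in log2(TPM + pseudocount) of -0.407 with a pseudocount of 0.1, against -0.069 with 1, which shows how far its value rests on that choice, and an adjusted p of 0.653 in limma with no filter on low values. Adamts7 passed under all 16. The count of called genes was 2, and 1 with a mean of at least 5 TPM, 1 with a replicate block, 2728 with array quality weights and 1 to 828 when 1 library was left out, the most without overexpression replicate 3. Libraries of the same mouse number had correlated deviations of -0.022 to 0.058, and 2 of 6 libraries correlated best with their own number, so the block was not used in the reported fit. With it the adjusted p was 0.350 for Tbc1d2b, 0.537 for Morf4l1, 0.745 for Ctsh and 0.960 for Ireb2. The median of the neighbours of Adamts7 was 0.041 to 0.12 over 18 alternatives, windows of 0.5 and 2 Mb included. Among marker lists, leaving out overexpression replicate 3 moved the macrophage median to 2.07 and the fibroblast median to 0.21, against 1.59 and -0.096. No scaling moved the median of all genes by over 0.025. Causes were not tested.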
